A study of Danio rerio with 6 samples.

Results

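Rab, Arf, Arl, Rac, Cdc42 and Ran genes were taken from the count table of a zebrafish (Danio rerio) exposure experiment by their symbols, as every row named rab, arl or arf with a number (arf 1 to 6), rac1 to rac3, cdc42 or ran. The rule gave 109 of 14612 genes. Of these, 96 are named for a small GTPase and 13 for a binding partner or regulator (the arl6ip, rab11fip and rab3gap genes, arl2bp, arl14ep and rab3ip), so the set is not one of GTPases alone. 6 genes had 0 counts in all 6 libraries (arf4b, arl1, rab18b, rab28, rab33ba and rab3ip), and the other 103 passed the filter on low counts, each with at least 53 counts in every library. 1 row has an uncertain name: the NCBI gene number beside rab43 (570205) carries the symbol isy1 in current RefSeq naming.

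Whole embryos at 7 days post fertilization were sampled as pools of 33 to 35 animals and their total RNA was sequenced. There were 3 control pools in plain embryo medium (concentration 0) and 3 pools in embryo medium with dissolved nucleotides at 10 µM, called nucleotide pools here. Which nucleotides were dissolved, the strain and the length of exposure are not stated in the labels. The column headers of the exposed libraries name carbon monoxide instead, so that the columns were matched by library name and the agent is given as labelled. Library totals ran from 18690465 to 23066970 counts in control and from 25792829 to 31556366 counts in nucleotide libraries, so depth differed between the arms without overlap. In control libraries 1 to 3 the 109 genes together held 0.585%, 0.599% and 0.573% of the counts. In nucleotide libraries 1 to 3 they held 0.618%, 0.633% and 0.607%. These shares are taken before any scaling. Whole embryos mix every cell type, and in such samples fewer cells of a type cannot be told apart from less RNA per cell.

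Small GTPases are molecular switches, active when bound to GTP and silent when bound to GDP. Exchange factors load GTP, GTPase-activating proteins speed its hydrolysis, and dissociation inhibitors keep many of the prenylated forms in the cytosol. Rab proteins mark membranes and direct vesicle transport, Arf and Arl proteins recruit coats and tethers, Rac and Cdc42 steer actin assembly and cell polarity, and Ran gives direction to nuclear transport.

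The nucleotide pools had modestly higher levels of many of these genes. In the fit without pairing (edgeR quasi-likelihood test, p adjusted over all genes), 1 of the 103 rose, cdc42, by 44.9%, beside 0.937% of all 13336 tested genes, and 0 fell, beside 0.0525% (in either direction, 0.99% of all genes passed). At an unadjusted p under 0.05 there were 24 higher and 3 lower members, beside 8.3% and 6.19% of all tested genes at that level, and DESeq2 called 10 higher and 0 lower, beside 3.05% and 0.736% of all genes (3.79% in either direction). Same-numbered libraries of the arms deviated together, so the replicate number was also fitted as a block. The labels do not state that these libraries are paired. The replicate numbers come from the sample titles. The library names carry numbers of their own. These are the same in both arms for every pair except pair 1 (the libraries with replicate number 1), where they differ. With the block, 32 of 103 rose (31.1%), beside 10.7% of all genes, and 5 fell (4.85%), beside 8.38%. In either direction, 19.1% of all genes passed with the block. Below, "rose" and "fell" refer to the blocked test at an adjusted p of 0.05 unless cdc42 in the unpaired fit is named, and log2 fold changes with their standard errors (SE) come from the fit without the block, with the adjusted p without and with the block in that order. Where a single adjusted p is given it is the blocked one.

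The shift was small and uneven across roles, with a median log2 fold change of -0.04 for Arl and 0.32 for Arf genes. Whether the shift is particular to these genes was not tested. The median log2 fold change was 0.14 over the 103 genes and -0.01 over all tested genes. Of the 103 values, 71 lay above 0 (68.9%), beside 6326 of the 13336 values of all tested genes. Of the 103, 51 were higher in each of the 3 same-numbered pairs, beside 25.7% of all genes, and 18 were lower in each, beside 27.3%. The groups did not overlap for 28 higher genes (27.2%, beside 11.5% of all genes) and 8 lower genes (7.77%, beside 9.88%). Summed over the 109 genes, levels were 5501, 5801 and 5516 CPM (counts scaled to a common library size with TMM factors) in control libraries and 6192, 6571 and 6654 CPM in nucleotide libraries, without overlap. The choice of scaling bears on the count of calls: with library totals in place of TMM factors, the median of all genes lay at -0.14 and that of the members at 0.01, with 12 rises and 11 falls under the block (beside 5.14% and 21.7% of all genes), while the distance between the medians was 0.15 under either scaling. A change of scaling moves all genes by nearly the same amount, so this distance could hardly differ. The 5 falls were likewise bound to stay below 0 under the downward shift with library totals. All 32 rises kept a fold change above 0 there, but 20 of them no longer passed. These were rac1a, rac1b, arf1, arf1l, arf4a, arl4ca, arl8, arl8a, rab6b, rab41, rab11a, rab14, rab5ab, rab4b, rab32a, rab8b, rab3aa, rab10, rab13 and arl6ip5b. The adjusted p of arf1, rab11a and arl4ca, for example, was 0.0503, 0.067 and 0.0925 there. Falls called there but not with TMM factors were those of arl2, arl4cb, arl14, rab14l, rab20 and rab3gap2. The TMM factors themselves did not overlap between the arms, at 1.03 to 1.06 in control and 0.913 to 0.999 in nucleotide libraries. Upper-quartile scaling with the block gave 28 rises and 8 falls, beside 9.08% and 10% of all genes. With each pair left out in turn, the blocked test called 31 rises and 3 falls without pair 1 (beside 9.47% and 6.51% of all genes), 25 and 1 without pair 2 (beside 8.6% and 6.45%), and 18 and 0 without pair 3 (beside 7.56% and 4.95%).

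**Figure D1:**
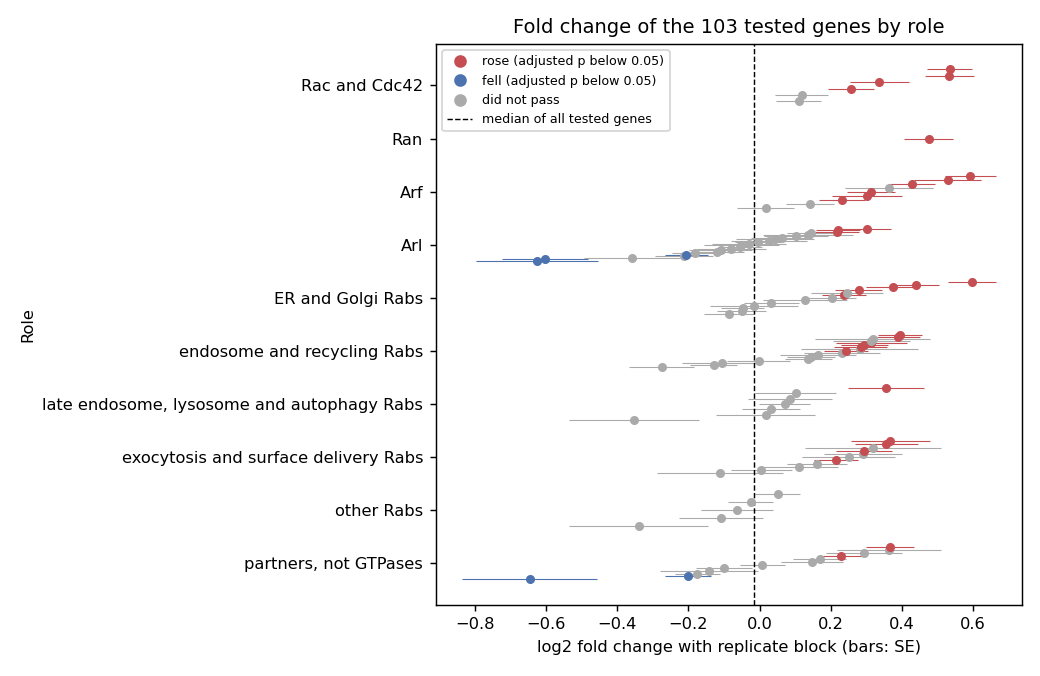
Log2 fold change of each tested gene (nucleotide against control, replicate number as a block, bars are SE), in rows by role, with the median of all tested genes as a dashed line. The rises (red) include 6 of 9 Arf and 4 of 6 Rac and Cdc42 genes. The Arl row has 3 rises and 3 falls (blue) among 22 genes. Of all tested genes, 10.7% rose and 8.38% fell.

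Of the 6 Rac and Cdc42 genes 4 rose with the block (66.7%, beside 10.7% of all genes) and 1, cdc42, without it (beside 0.937%). All 6 had fold changes above 0, with a median of 0.30. All 6 were also higher in 3 of 3 pairs, beside 25.7% of all genes. cdc42 (NCBI gene 336839), the polarity and filopodia GTPase, lay at 149.9, 153 and 157 CPM in control libraries 1 to 3 and at 219, 215 and 231 CPM in nucleotide libraries 1 to 3. All 3 nucleotide values were above all 3 control values, and each group kept within a narrow range. The means were 153 ± 3.32 and 222 ± 8.57 CPM (SD, n = 3 each), a log2 fold change of 0.53 ± 0.0882 (SE), with an edgeR adjusted p of 0.0372 without and 0.000198 with the block. The unpaired call of cdc42 was lost with any single library left out, at adjusted p of 0.213, 0.156 and 0.113 without control library 1, 2 or 3 and 0.121, 0.123 and 0.102 without nucleotide library 1, 2 or 3, and with library totals (0.106), where 0.645% of all genes passed as higher. Its fold change stayed between 0.41 and 0.56 over all of these, and the blocked call held without any pair (adjusted p up to 0.00139). Fewer libraries enter with a pair left out. Even so, the blocked edgeR adjusted p was smaller without pair 1 or 2 (6.1e-07 and 1.11e-05) than with all pairs. Leaving out a pair is thus a weak check.

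rac2 (415151), the Rac of blood cells, had 33.7, 33.7 and 39.6 CPM in control and 51.9, 47.1 and 55.5 CPM in nucleotide libraries. The groups were apart, and the log2 fold change was 0.53 ± 0.108 (SE; edgeR adjusted p = 0.0745 without and 0.0004 with the block). Because rac2 is a gene of leukocytes, it was set beside 13 macrophage and neutrophil markers. Of these markers, 3 rose (coro1a, spi1b and mmp9) and 1, the lysozyme gene lyz, fell, and their summed level spanned 421 to 764 CPM in control and 478 to 792 CPM in nucleotide libraries, so that the groups overlapped. None of the 13 was at 0. Of all genes, 10.7% rose and 8.38% fell with the block. The neutrophil gene mpx had a log2 fold change of -0.32 and the granulocyte and macrophage gene coro1a one of 0.40 (adjusted p = 0.881 and 0.0899 without the block, 0.226 and 0.00295 with it). Their part in the rac2 result was not tested.

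The widely expressed Rac genes rac1a (327204) and rac1b (562838), which drive lamellipodia, rose as well but by less. rac1a stood at 47.2, 46.7 and 57.6 CPM in control and 55.5, 53.9 and 72.2 CPM in nucleotide libraries, so that the groups overlapped while each pair rose (log2 fold change 0.26 ± 0.142 SE, edgeR adjusted p = 0.457 without and 0.0171 with the block). rac1b went from 32.5 ± 3.11 to 40.9 ± 2.79 CPM (SD, n = 3 each), without overlap (0.33 ± 0.106 SE, adjusted p = 0.207 and 0.0169). Both calls were lost without pair 3 (adjusted p = 0.0703 for rac1a and 0.106 for rac1b). rac3a and rac3b, genes of the Rac best known from neurons, had values of 0.11 ± 0.125 and 0.12 ± 0.12 (SE) and did not pass (adjusted p = 0.735 and 0.717 without, 0.29 and 0.25 with the block); with library totals both lay just below 0.

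**Figure D2:**
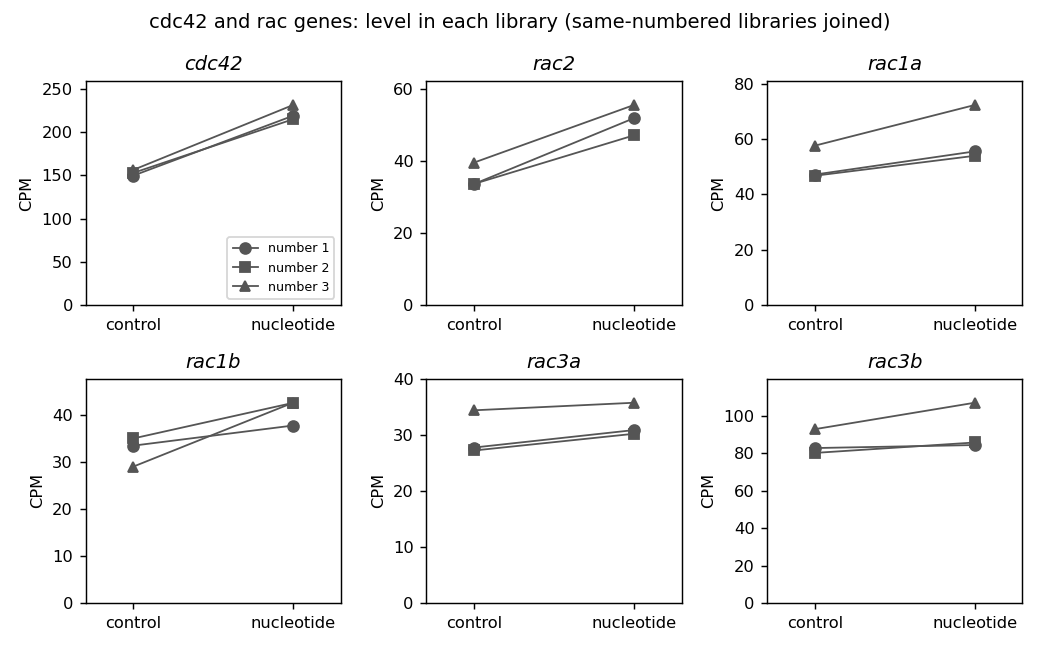
Level (CPM, linear axis from 0) of cdc42 and the 5 rac genes in each library, with lines joining libraries of the same number. Every line slopes upward; the gap between groups is widest relative to the spread for cdc42 (153 to 222 CPM on average), while rac3b ranges from 80.3 to 93.0 CPM in control and 84.5 to 107 CPM in nucleotide libraries.

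ran (30572), the GTPase that loads and unloads cargo of importins and exportins, was at 374, 406 and 392 CPM in control and 498, 549.5 and 585 CPM in nucleotide libraries. The lowest nucleotide value was above the highest control value. The means of 391 ± 15.9 and 544 ± 43.6 CPM (SD, n = 3 each) gave a log2 fold change of 0.48 ± 0.105 (SE), with an edgeR adjusted p of 0.0955 without and 0.000918 with the block, and the blocked call held without any pair (up to 0.00207).

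Arf genes also moved mostly upward. Of the 9 tested, all had a fold change above 0 (median 0.32). Higher in 3 of 3 pairs were 8, beside 25.7% of all genes. In the blocked edgeR test 6 rose (66.7%) and 0 fell, beside 10.7% and 8.38% of all genes. In the unpaired one 6 had an unadjusted p under 0.05, beside 14.5%, and DESeq2 called 3 higher, beside 3.05%. arf5 (378724), a class II Arf of the early secretory pathway, lay at 59.2, 66.9 and 65.1 CPM in control and 82.1, 96.6 and 111 CPM in nucleotide libraries. The groups did not overlap, although nucleotide library 1 stood lower than the other two. The log2 fold change was 0.60 ± 0.124 (SE), or 51.5% higher, with an edgeR adjusted p of 0.0782 without and 0.000238 with the block. arf4a (445196), the other class II gene tested, went from 13.6 ± 1.06 to 16.7 ± 0.912 CPM (SD, n = 3 each; 0.30 ± 0.114 SE, adjusted p = 0.284 and 0.0492), and its call was lost without any one of the pairs (0.0827 to 0.185).

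Among class I Arf genes, which recruit the COPI coat to Golgi membranes, arf2 (399477, now named arf2a) had 246, 255 and 277 CPM in control and 336, 331 and 380.3 CPM in nucleotide libraries (0.43 ± 0.105 SE, edgeR adjusted p = 0.122 without and 0.00116 with the block). arf3a (445047) had 14.95, 14.8 and 18.0 CPM against 20.8, 24.4 and 23.9 CPM (0.53 ± 0.124 SE, 0.113 and 0.00297). Neither gene overlapped between the groups. arf1 (114428) had 85.2, 97.5 and 97.5 CPM in control and 104, 111 and 134 CPM in nucleotide libraries (0.32 ± 0.12 SE, 0.28 and 0.00864), again apart. arf1l (327026, now named arf2b) rose by 17.9% with overlap between the groups (adjusted p = 0.436 and 0.0271, lost without pair 3 at 0.108). arf3b, at 0.37 ± 0.14 (SE), did not pass (0.283 and 0.0595). The class III genes arf6a and arf6b, for the Arf of the cell surface and endosomal recycling, had values of 0.02 ± 0.0994 and 0.14 ± 0.103 (SE; adjusted p = 0.905 and 0.171 with the block).

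Arl genes, a more diverse group, had no shared direction, and their share of rises was near that of all genes. Of 22 tested, 3 rose (13.6%) and 3 fell in the blocked test, beside 10.7% and 8.38% of all genes. The other 16 did not pass, and the median was -0.04, beside -0.01 over all tested genes. With library totals and the block, none of the 3 rises passed. The 3 falls still passed there and arl2, arl4cb and arl14 fell as well, while 21.7% of all genes fell. The rises were arl4ca (550444), whose product recruits Arf exchange factors to the cell surface, and arl8 (327551) and arl8a (567222), genes of the Arl that couples lysosomes to kinesin. arl4ca went from 33.8 ± 2.82 to 41.6 ± 3.71 CPM (SD, n = 3 each) without overlap (0.30 ± 0.108 SE, edgeR adjusted p = 0.258 without and 0.0111 with the block). arl8 and arl8a had the same fold change of 0.22 and overlapping groups (0.395 and 0.379 without, 0.0281 and 0.0317 with the block). The call of arl8 was lost without any one of the pairs (0.0694 to 0.0806) and that of arl8a without pair 2 or 3 (0.143 and 0.0828). The related arl8ba had a value of -0.05 (adjusted p = 0.58 with the block).

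The 3 Arl genes that fell were arl15a, arl5c and arl4d. arl15a (567657) had low levels, 4.60, 6.53 and 5.68 CPM in control and 3.80, 3.62 and 3.37 CPM in nucleotide libraries. These groups did not overlap, and the log2 fold change was -0.64 ± 0.184 (SE, edgeR adjusted p = 0.182 without and 0.0257 with the block). arl5c (393819), related to the Arl5 proteins of the trans-Golgi, had 23.3, 22.1 and 36.4 CPM against 11.9, 19.2 and 23.4 CPM. The groups overlapped, since library 3 was the highest of each arm, but each pair was lower (-0.59 ± 0.275 SE, 0.379 and 0.00574). arl4d (323573) fell by 13.3%, from 91.3 ± 8.84 to 79.1 ± 7.16 CPM (SD, n = 3 each), with overlap (0.442 and 0.0334). None of the 3 calls held without every pair: arl5c was lost without pair 3 (0.055), arl15a without pair 2 or 3 (0.127 and 0.118) and arl4d without any of them (0.13, 0.127 and 0.0692).

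The Arl genes of cilia did not pass. arl3, arl6, arl13a and arl13b, for GTPases that sort cargo into cilia, had log2 fold changes of 0.15, 0.11, -0.11 and 0.00 (adjusted p from 0.154 to 0.968 with the block). The 16 Arl genes that did not pass ranged from -0.35 (arl14) to 0.15 (arl3).

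Of 53 tested Rab genes, 16 rose (30.2%) and 0 fell in the blocked edgeR test, beside 10.7% and 8.38% of all genes. With library totals and the block, most of the 16 rises no longer passed. There rab14l and rab20 fell (edgeR adjusted p = 0.0158 and 0.0189), beside 21.7% of all genes. In the unpaired test 11 had an unadjusted p under 0.05, beside 14.5% of all genes. DESeq2 called 3 higher and 0 lower, beside 3.05% and 0.736%. The median was 0.16, and 26 were higher in 3 of 3 pairs, beside 25.7% of all genes. By compartment, 5 of 13 ER and Golgi Rabs rose (38.5%) and 6 of 17 endosome and recycling Rabs (35.3%). The row named rab43, whose name is uncertain, is counted among these 5 and among the 16. Of 11 Rabs of exocytosis and surface delivery 4 rose (36.4%). Rises among late endosome, lysosome and autophagy Rabs (1 of 7, 14.3%) and others (0 of 5) were near or below the share of all genes. Whether these shares differ was not tested.

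Among the ER and Golgi Rabs, rab1a (368883, now named rab1ab), which tethers vesicles arriving from the ER, had 52.9, 63.6 and 53.3 CPM in control and 77.0, 90.4 and 88.8 CPM in nucleotide libraries. The groups were well apart, with a log2 fold change of 0.59 ± 0.112 (SE), or 51.0% higher (edgeR adjusted p = 0.06 without and 0.00015 with the block). rab2a (140617), which acts in transport between ER and Golgi, had 198, 212 and 201 CPM against 257, 281 and 290.4 CPM (0.44 ± 0.0962 SE, 0.0923 and 0.00114). The row named rab43 had 24.7, 30.1 and 27.1 CPM against 33.7, 38.5 and 33.7 CPM (0.37 ± 0.111 SE, 0.189 and 0.00554), and its name is uncertain as said above. Both were without overlap. rab6b (558900, now rab6ba) and rab41 (406674) rose by 18.1% and 20.6% with overlapping groups (0.496 and 0.462 without, 0.0216 and 0.0136 with the block; lost without pair 3 at 0.0673 and 0.0555, and rab6b also without pair 2 at 0.0879). The close relatives rab1ba, rab1bb and rab6a had log2 fold changes of -0.05, -0.09 and -0.05 (adjusted p = 0.644, 0.423 and 0.625 with the block).

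In the endosome group, rab5c (386807), 1 of 4 genes for the Rab5 of early endosomes, had 112, 103 and 108 CPM in control and 145, 134 and 144 CPM in nucleotide libraries, without overlap (0.39 ± 0.0865 SE, edgeR adjusted p = 0.0955 without and 0.00134 with the block). rab5ab rose by 22.1% (0.24 and 0.0211, lost without pair 2 or 3 at 0.121 and 0.0747), whereas rab5aa and rab5b, at 0.14 each, did not pass (0.154 and 0.165 with the block). rab11ba (406798), for a Rab11 of recycling endosomes, had 95.3, 112 and 97.1 CPM against 124, 150.1 and 126 CPM (0.40 ± 0.113 SE, 0.18 and 0.00124). rab11a (492487) went from 113 ± 3.56 to 138 ± 9.6 CPM (SD, n = 3 each; 0.30 ± 0.0911 SE, 0.2 and 0.0108). Neither overlapped between groups, and both calls held without any pair, with rab11a just under the threshold without pair 3; under library totals that of rab11a was lost. rab14 (373104) lay at 142, 143 and 138 CPM against 166, 166 and 168 CPM, a gap far wider than the spread within either group, for a log2 fold change of only 0.24 ± 0.0825 (SE; 0.233 and 0.0181, lost without pair 2 at 0.073). rab4b rose by 25.8% with overlap (0.484 and 0.048, lost without pair 2 or 3 at 0.331 and 0.106).

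Of the exocytosis group, rab13 (373105), a Rab of tight junctions, had 10.1, 9.59 and 8.81 CPM in control and 12.7, 11.6 and 12.3 CPM in nucleotide libraries (0.37 ± 0.121 SE, edgeR adjusted p = 0.224 without and 0.0378 with the block). It did not overlap, but the call was lost without any one of the pairs (0.0572 to 0.144). rab8b, which serves transport to the cell surface and cilia, rose by 28.1% (0.384 and 0.0175, lost without pair 3 at 0.112). rab3aa, for the synaptic vesicle Rab, rose by 22.7% (0.221 and 0.0252, lost without pair 3 at 0.146), and its copy rab3ab had a value of 0.01 (0.973). rab10 (436839), which acts in delivery to the basolateral surface, went from 145 ± 19.8 to 168 ± 20.7 CPM (SD, n = 3 each), an overlapping rise of 15.9% (0.523 and 0.0311) that was lost without any one of the pairs (0.0624 to 0.127).

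Of the 7 late endosome, lysosome and autophagy Rabs only rab32a passed. rab7 (393902), the Rab of late endosomes and lysosomes, stood at 185, 205 and 166 CPM in control and 178, 209 and 196 CPM in nucleotide libraries, with groups that overlapped and a log2 fold change of 0.07 ± 0.115 (SE; edgeR adjusted p = 0.837 without and 0.523 with the block). rab32a, of melanosomes and other lysosome-related organelles, rose by 28.3% without overlap (0.286 and 0.0377, lost without any one of the pairs at 0.0738 to 0.148). rab9a, rab24, rab12 and rab34a lay between 0.02 and 0.10, and rab36 at -0.35, none of them past the threshold. Of the remaining Rabs, rab23, a regulator of Hedgehog signaling, rab40b, rab40c, rab42a and rab42b ranged from -0.33 to 0.05 and did not pass.

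The 12 tested partner genes split evenly, with 2 rises and 2 falls (16.7% each, beside 10.7% and 8.38% of all genes). arl6ip1 (394087), which shapes tubular ER, had 234, 243 and 229.8 CPM in control and 292, 301 and 318 CPM in nucleotide libraries, without overlap (0.37 ± 0.0923 SE, edgeR adjusted p = 0.131 without and 0.00364 with the block). arl6ip5b rose by 17.4%, also without overlap (0.295 and 0.0254, lost without pair 1 or 2 at 0.0542 and 0.144). arl6ip6 (100037347) had 3.54, 3.78 and 3.26 CPM against 2.30, 2.54 and 1.94 CPM, groups that did not overlap (-0.64 ± 0.196 SE, 0.199 and 0.0348). rab11fip3 (573631), a Rab11 effector of recycling and cytokinesis, fell by 13.1% with overlap (0.507 and 0.0452). Both falls were lost without any one of the pairs (adjusted p of 0.0781 to 0.114 and 0.0791 to 0.263). Without the partners, 30 of 91 GTPase genes rose (33.0%) and 3 fell (3.3%), beside 10.7% and 8.38% of all genes. The row named rab43, of uncertain name, is counted among the 30.

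**Figure D3:**
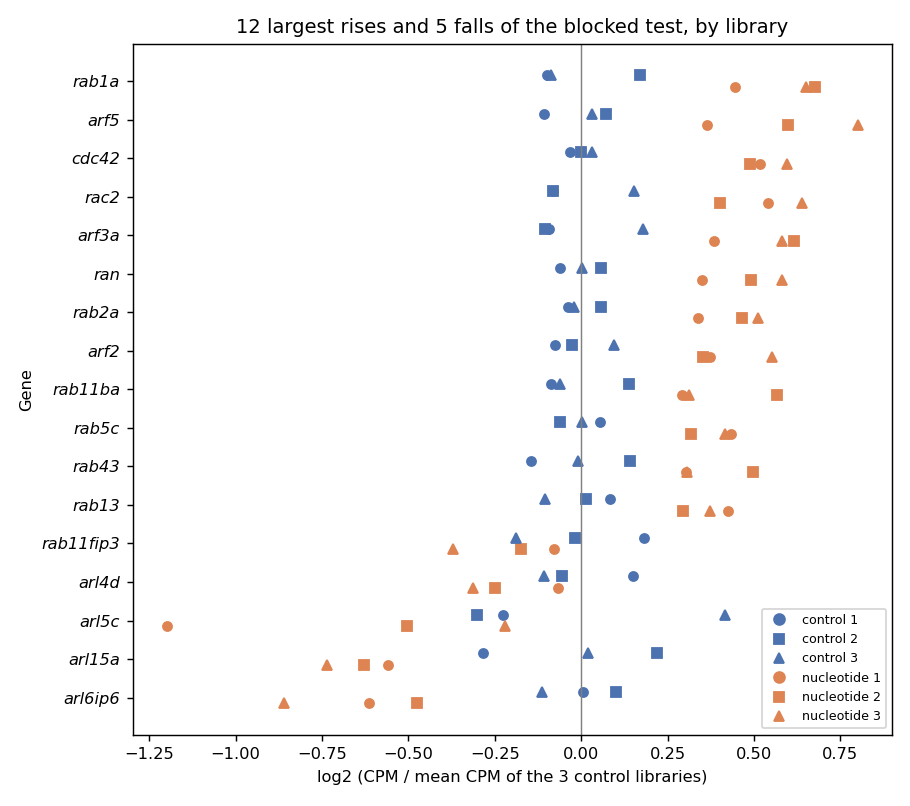
Level of the genes with the 12 largest rises and of the 5 that fell, as log2 of CPM over the control mean, per library (blue control, orange nucleotide, marker shape the replicate number). For the 12 rises all nucleotide points lie right of all control points; arl5c, arl4d and rab11fip3 overlap between groups and fall only when libraries of the same number are compared.

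Count ratios of related genes within a library do not depend on scaling, and 15 such pairs, chosen after the values were seen and so given without a test, are plotted. The ratio of rab1a to rab1ba was 0.198, 0.248 and 0.196 for control against 0.312, 0.380 and 0.311 for nucleotide libraries, with no overlap. The ratio of rab11ba to rab11bb was 9.21, 10.1 and 8.55 against 13.3, 15.2 and 11.2, again apart. That of rab14 to rab14l was 1.17, 1.17 and 1.26 against 1.64, 1.45 and 1.57. The ratios of arf3a to arf3b and of arf2 to arf1 overlapped between groups, with mean ratios of 1.81 and 2.04 and of 2.78 and 3.01. The groups also overlapped for arf5 to arf4a, rac2 to rac1b, rab5c to rab5aa, rab11ba to rab11a and arl5c to arl5a. Close copies can share reads, and the sources do not state how reads with several matches were counted, so the value of a single copy is uncertain.

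**Figure D4:**
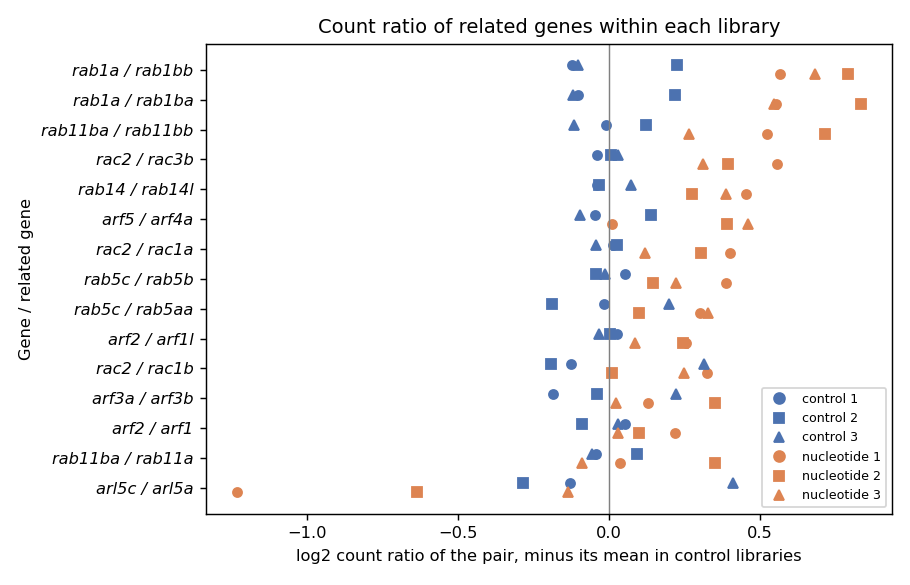
Log2 count ratio of 15 pairs of related genes in each library, with the mean of the control libraries set to 0 (blue control, orange nucleotide, marker shape the replicate number). The groups are apart for rab1a over rab1ba or rab1bb, rab11ba over rab11bb, rac2 over rac1a or rac3b and rab14 over rab14l. They are also apart for arf2 over arf1l and rab5c over rab5b. They overlap for arf3a over arf3b, arf2 over arf1, arf5 over arf4a and rac2 over rac1b. Overlap is also seen for rab5c over rab5aa, rab11ba over rab11a and arl5c over arl5a.

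Variation between libraries of the same arm followed the replicate number in some genes. The number term of the blocked edgeR fit, tested after the pairing was seen, passed in 23 of 103 genes (22.3%), beside 25.9% of all genes. rab3gap1 (777744), the catalytic subunit of the Rab3 GTPase-activating protein, had the smallest p (adjusted p = 1.76e-05). It stood at 68.8, 97.2 and 51.0 CPM in control and 65.9, 103 and 50.7 CPM in nucleotide libraries. Library 2 was thus the highest and library 3 the lowest in both arms, and the exposure difference was 0.02 ± 0.297 (SE, adjusted p = 0.983 without and 0.951 with the block). arl13a (37.4, 42.4 and 30.1 CPM in control, 36.4, 40.5 and 25.1 CPM in nucleotide libraries) had the same order. In 55 of the 103 genes the range between numbers was larger than the size of the exposure difference. The medians were 0.23 and 0.21 on the log2 scale. These are unlike measures, since a range from highest to lowest number tends to be larger than a single difference of group means. The share over all genes is not given, so this count does not rank number against exposure. What the number stands for (clutch, day or preparation) is not given by the labels.

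**Figure D5:**
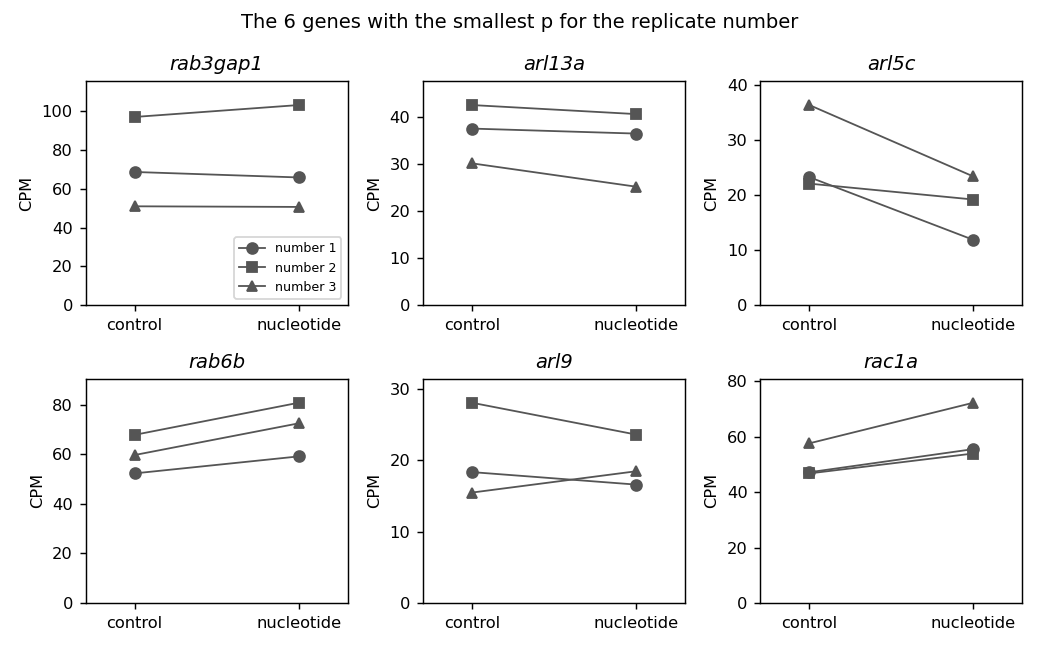
Level (CPM, linear axis from 0) of the 6 genes with the smallest p for the replicate number, with lines joining same-numbered libraries. The lines of rab3gap1 and arl13a keep their order, with arl13a slightly lower in each nucleotide library, those of arl5c slope downward and those of rab6b and rac1a upward.

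Regulators and effectors of the same GTPases were taken as 5 lists with 177 tested genes. Without the block 0 passed in edgeR, 27 had an unadjusted p under 0.05 (beside 14.5% of all genes in either direction), and DESeq2 called 0 higher and 0 lower. With the block 20 rose (11.3%) and 11 fell, beside 10.7% and 8.38% of all genes, and the median was 0.00. Of 33 Rab cycle regulators 3 rose and 3 fell. rabgef1, a Rab5 exchange factor, went from 49.7 ± 2.81 to 60.7 ± 1.04 CPM (SD, n = 3 each; edgeR adjusted p = 0.188 without and 0.0106 with the block), and ccz1, part of the Rab7 exchange factor, rose to 39.9 ± 1.38 from 33.7 ± 2.01 CPM (0.0364 with the block). The GTPase-activating protein genes tbc1d19 and tbc1d20 fell, with log2 fold changes of -0.36 and -0.28 (0.0294 and 0.0434). Of 24 Rab effectors 5 rose and 0 fell in the blocked edgeR test (2 had an unadjusted p under 0.05 without it, and DESeq2 called 0), among them rabac1 (0.30) and uso1 (0.22), a Rab1 effector that tethers vesicles at the Golgi (0.0132 and 0.0278); rilpl1 and rilpl2, at 0.31 and 0.30, did not pass (0.0597 and 0.0943).

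Of 31 Arf and Arl regulators and COPI coat genes 1 rose (3.23%) and 2 fell, beside 10.7% and 8.38% of all genes with the block. The falls were asap1a (-0.26) and acap2 (-0.34), both for Arf GTPase-activating proteins (0.0133 and 0.0395 with the block). acap1 and the coat gene copz1, at -0.29 and 0.22, did not pass (0.068 and 0.0526). Of 63 regulators and effectors of Rac and Cdc42 6 rose (9.52%) and 3 fell. elmo1, part of a Rac exchange factor, went from 137 ± 4.31 to 168 ± 6.08 CPM and cyfip2, a subunit of the Rac-driven WAVE complex, from 163 ± 17.2 to 203 ± 7.95 CPM (SD, n = 3 each; 0.00755 and 0.00637 with the block). srgap2b, for a Rac GTPase-activating protein, and dock4b, for an exchange factor, fell with values of -0.38 and -0.33 (0.00478 and 0.00412). Of 26 Ran cycle and nuclear transport genes 5 rose (19.2%) and 3 fell. ranbp1, a Ran-binding partner (0.36), the importin alpha gene kpna3 (0.34) and nutf2, which carries Ran into the nucleus (0.35), rose (0.00486, 0.00774 and 0.0101), while ranbp10 fell (-0.32, 0.00486). These 4 had the smallest p of their list. Over the 26 genes the median was 0.05, with 15 values above 0. In 3 of 3 pairs 9 were higher and 9 lower, beside 25.7% and 27.3% of all genes. The summed level of this list was 2575 to 2992 CPM in control and 2674 to 2846 CPM in nucleotide libraries, with overlap. Without the block, the adjusted p of the genes named in these lists lay between 0.159 (kpna3) and 0.376 (uso1). Over the 5 lists there were 15, 11 and 14 rises and 7, 12 and 7 falls without pair 1, 2 or 3. Of all genes, 9.47%, 8.6% and 7.56% rose and 6.51%, 6.45% and 4.95% fell in these fits.

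Markers of muscle and neurons and histone genes were also compared. Of all genes, 10.7% rose and 8.38% fell with the block, and 0.937% rose without it. DESeq2 called 3.05% of all genes higher. Of 20 skeletal muscle markers 15 rose and 0 fell in the blocked edgeR test (2 rose without the block), and their summed level was 41282 to 50472 CPM in control and 51138 to 84328 CPM in nucleotide libraries, the highest being nucleotide library 3. Of 15 tested neuron markers 5 rose and 0 fell with the block, with sums of 3153 to 3337 CPM against 3444 to 3727 CPM. The other 10 did not pass. The median log2 fold change of the 15 was 0.02, with 9 values above 0, so the higher sum was not shared by the whole list. Of this list, 1 further marker was at 0. Of 9 tested histone genes 5 rose and 0 fell (h3f3a, h3f3b.1, h3f3c and h3f3d, for a replacement histone whose transcripts are polyadenylated, and hist2h2l), with sums of 1549 to 2052 CPM against 1954 to 2481 CPM. Without the block, 0 neuron and 2 histone genes passed in edgeR, 4 of each list had an unadjusted p under 0.05, and DESeq2 called 3 and 4 higher. The part of any of these in the rises of GTPase genes was not tested.

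The authors' deposited table, whose fold changes are shrunken, gives an adjusted p for 101 of the 109 genes. Of these, 10 were higher at 0.05 and 0 lower, beside 3.3% and 0.824% of all genes with a value there. The authors' deposited table thus lists cdc42 (adjusted p = 1.73e-06), rab1a, ran, rab2a, arf5, rac2, rab5c, arl6ip1, arf2 and arf3a. All 10 were among the 32 rises of the blocked test and among the 10 calls of DESeq2 made here. These calls rest on the same counts, so the match is no independent support.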

How the data were processed

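Total RNA of 6 pools was sequenced. The authors deposited 1 table. It holds raw counts (whole numbers) for each gene in each library. The same deposited table has a comparison by the authors, with a mean scaled count (a signal), log2 fold changes and their errors, Wald scores, and raw and adjusted p-values. The submitters' processing notes name TopHat2, HTSeq, DESeq2 and GRCz10; their roles and versions, the annotation, the strand setting and the handling of multiply matching reads are not stated in these sources. No coordinates or sequences are printed, since the gene tables at hand (GRCz12tu) are of another build and were used for names only. Of 109 gene numbers, 101 carry the same symbol there.

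Of 14681 rows, 69 were repeats (one symbol, identical values) and were removed. edgeR's filterByExpr (at least 10 counts, total at least 15) left 13336 genes, which were scaled by TMM and tested with edgeR 4.0.16 in R 4.3.3 (quasi-likelihood F test, 2-sided, Benjamini-Hochberg over all genes, threshold 0.05). SE is the size of the change over the root of F. Steps were tested on simulated data that held no effect of replicate number. False calls of the block as used here were thus not tested. DESeq2 1.42.0, other scalings, no filter, the replicate block and left-out libraries were alternatives; the block with other scalings was added after seeing the data. That pools of 1 arm came from separate clutches is not stated, so p-values measure only how these samples vary.

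Replicate numbers 1 to 3, taken from the sample titles, occur in both arms. The numbers within the library names are the same in both arms for every pair except pair 1, so they back the pairing only in part. Deviations of log2 CPM from group means correlated at 0.546, 0.625 and 0.617 between same-numbered libraries, and at -0.403 to -0.232 otherwise. Deviations cancel within an arm by construction, so positive same-numbered values force negative ones elsewhere. The negative values are thus no separate evidence. All 3 same-numbered values exceeded 0.1, so same-numbered pools were treated as pairs. The labels do not say so, and the pairing was chosen from the same counts that were tested.

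Members, gene lists and roles were chosen with earlier results of these data known. Named in full were members past the threshold without the block, the 12 largest rises and all falls with it, their copies, the 8 highest in CPM, cdc42, ran and the rac genes, and 4 genes per pathway list with the smallest p. Other genes were named after their values were seen. A list of further small GTPase genes is not reported here.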

Additional observations from a re-analysis of the deposited data

How the results depend on the processing

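Counts of calls depended on the design more than on filter or tool, and the causes were not tested beyond what follows. With the replicate block 32 members rose and 5 fell, against 1 and 0 without it, 20 regulators rose and 11 fell against 0 and 0, and 1432 and 1118 of all genes passed against 125 and 7. DESeq2 called 10 members, and 398 and 96 of all genes, higher and lower. Library totals without the block left 0 members and 18 falls among all genes; the upper quartile gave 11 such falls. With the block, the counts were 32 and 5 members, 20 and 11 regulators and 1457 and 1102 of all genes (higher and lower) under DESeq2 size factors, 28 and 8, 16 and 15, 1211 and 1335 under the upper quartile, and 12 and 11, 4 and 48, 686 and 2889 under library totals. The median of the members was 0.01 under library totals both without the block (0.0124) and with it (0.0118), where the median of all genes lay at -0.138 and -0.14.

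With 1 library left out and no block, 0 members passed, and 39 to 79 of all genes rose and 0 to 2 fell; fewer samples enter there. With a pair left out and the block kept, 31, 25 and 18 members rose and 3, 1 and 0 fell without pair 1, 2 and 3, 15, 11 and 14 regulators rose and 7, 12 and 7 fell, and 1265, 1150 and 1010 of all genes rose and 870, 862 and 661 fell. Of the 32 rises, 15 were called without each of the 3 pairs, and of the 5 falls 0. The members' median ran from 0.105 to 0.174 with 1 library and from 0.112 to 0.166 with 1 pair left out.

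Under library totals with the block, 17 members turned from above to below 0, and 0 of them passed either blocked test. Of the members with a full set of alternatives, signs turned for rab12 (-0.034 and -0.038 under library totals without and with the block, -0.0036 without control library 3, and a range of -0.048 to 0.196 with 1 library left out), arl5a (-0.058 and -0.063 under library totals), rab1ba (-0.127 to 0.0055 with 1 library left out), rab7 (-0.056 and -0.054 under library totals, -0.0025 to 0.148 with 1 library left out, -0.011 without pair 3), rac3a (-0.012 and -0.0077) and rac3b (-0.014 and -0.015) under library totals. Among the members, differences of about 0.2 on the log2 scale passed only in the blocked test. Larger ones also failed in edgeR without the block, among them arf5 (0.60), rab1a (0.59) and rac2 (0.53). Their adjusted p there was 0.0782, 0.06 and 0.0745, while DESeq2 called all of them.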
